A study of Canis lupus familiaris with 4 samples.

Results

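RGS genes encode regulators of G protein signalling. Of the 9 genes listed for this family, selected on the scaled read counts of RGS2, which were higher with exosomes in both deposited comparisons, 7 were analysed (RGS1, RGS2, RGS3, RGS10, RGS12, RGS14 and RGS19), out of 11691 genes present in both comparisons. RGS16 and RGS18 were not analysed here. All libraries came from CD8+ T cells of healthy mixed-breed dogs, expanded out of blood mononuclear cells over 14 to 20 days. IL-2 at 2500 IU/mL and 2-mercaptoethanol at 50 µM were in the medium of every culture, exosome and control alike. In the exosome group the purified cells received exosomes, small membrane vesicles, shed by the dog lymphoma line CLBL-1, which stems from a diffuse large B cell tumour, and in the control group an equal amount of PBS. The sample labels list 50, 100 and 200 µg/mL of exosomes, whereas the series' design names 50 µg/mL. All 4 libraries are labelled as exposed for 48 h, yet the columns of 1 table are named 24 h and those of the other 48 h.

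Each group held 2 libraries, 1 per dog, which form 2 pairs, each with a table of its own. Pair 1 is the one whose columns are named 24 h, and pair 2 the one whose columns are named 48 h. By the labels, 1 dog was female and the other male. Dog, sex and the time in the column names go together, so their parts in a difference between pairs cannot be told apart. The authors' values are read counts divided by 1 factor per library, called scaled counts here, and reads recovered from them were 9417298 to 12325953 per library over the 11691 genes. No value in these genes was 0. Each value below is 1 library without a replicate in its pair, and intervals given for ratios are exact 95% intervals that cover counting error only.

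Receptors coupled to G proteins, chemokine receptors among them, switch on a G protein by loading its alpha subunit with GTP. RGS proteins speed the hydrolysis of that GTP through the RGS domain they share, which ends the signal. In lymphocytes the family is known for tuning responses to chemokines and other migration cues. By subfamily, RGS1, RGS2 and RGS3 belong to R4, RGS10, RGS12 and RGS14 to R12, and RGS19 to RZ.

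Of the 7 genes, RGS2 and RGS1 had higher values in the exosome library of both pairs, and RGS2 had the wider differences of these. RGS2 (ENSCAFG00000010595), an R4 member known for a preference for the Gq class, stood at 242 scaled counts in the exosome library and 44.3 in the control library of pair 1, from 2456 and 565 reads. In pair 2 it stood at 4.80 in the exosome library and 2.23 in the control library, from 61 and 21 reads. The exosome library was thus the higher one in each pair, while both libraries of pair 1 lay above both of pair 2. The ratio of exosome to control was 5.46 (interval 4.98 to 5.996) in pair 1 and 2.15 (1.29 to 3.72) in pair 2. On the log2(scaled count + 1) scale, which understates changes of low genes, the fitted RGS2 difference over both pairs was 1.63. Fits with 1 library left out have no pair term and so take in the difference between pairs, and the RGS2 value turned to -1.06 without the exosome library of pair 1 and to -0.27 without the control library of pair 2. This comparison chose the family, so the values are a description. As background, limma called 0.744% of all genes for the treatment (0.248% higher and 0.496% lower) and edgeR with the same pair block 0 genes (at an unadjusted p under 0.05, 655 were higher and 985 lower). RGS2 was the 1 gene of the 7 within limma's calls, which is no test of RGS2, since its rise was the reason for the choice. In RNA of whole cultures, fewer cells of a type and less RNA per cell cannot be told apart.

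RGS1 (ENSCAFG00000010603), an R4 member that dampens chemokine receptor signalling in lymphocytes, stood at 1401 in the exosome library and 1049 in the control library of pair 1. In pair 2 it stood at 54.1 with exosomes and 42.8 with PBS. Its ratio was 1.34 (1.30 to 1.37) in pair 1 and 1.26 (1.12 to 1.43) in pair 2. The step was thus of similar size in both pairs, although the RGS1 level differed widely between them. RGS3 (ENSCAFG00000003267), an R4 member with several isoforms that also acts outside the receptor cycle, stood at 58.4 with exosomes and 87.4 with PBS in pair 1, and at 56.4 with exosomes and 54.9 with PBS in pair 2. The control library of pair 1 was the high one for RGS3, and the other three lay close together.

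**Figure D1:**
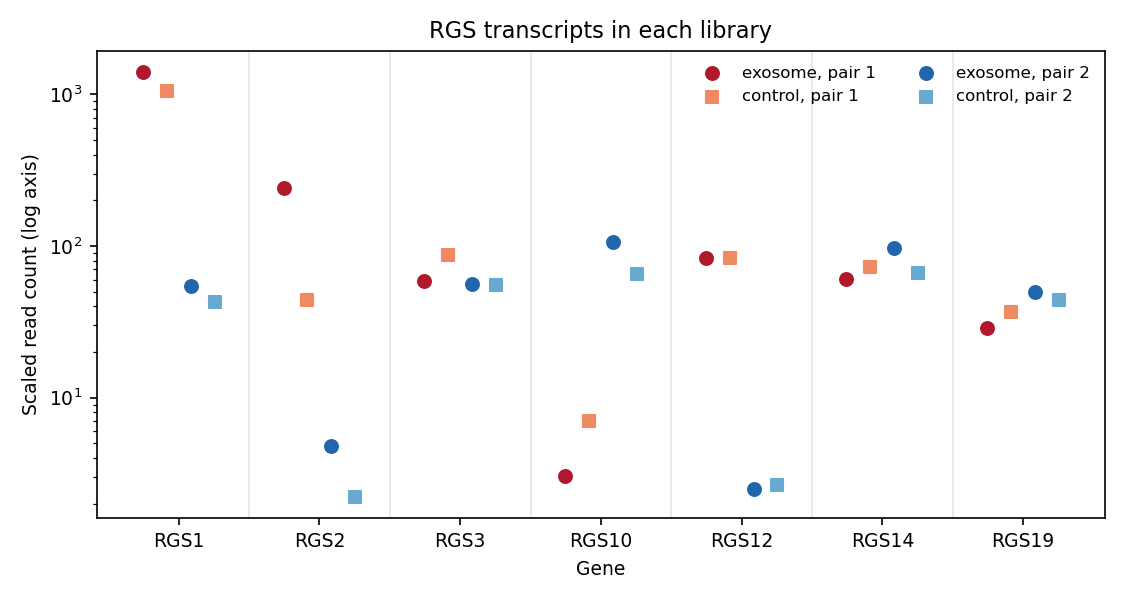
Scaled read counts (log axis) of the 7 RGS genes in each library, with pair 1 in red and pair 2 in blue, exosome libraries as circles and control libraries as squares. RGS2 is higher with exosomes in both pairs, at 242 with exosomes and 44.3 with PBS in pair 1 and 4.80 with exosomes and 2.23 with PBS in pair 2, and RGS1, RGS2, RGS10 and RGS12 are set far apart by pair.

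In the R12 subfamily, values with exosomes differed from PBS in opposite directions in the 2 pairs for RGS10 and RGS14. RGS10 (ENSCAFG00000031204), a small member that acts mainly on the Gi class, stood at 3.06 in the exosome library and 6.98 in the control library of pair 1. In pair 2 it stood at 107 with exosomes and 65.2 with PBS. The RGS10 ratio was 0.438 (0.281 to 0.665) in pair 1, which rests on 31 and 89 reads, and 1.64 (1.49 to 1.80) in pair 2, which rests on 1355 and 614 reads. RGS14 (ENSCAFG00000016425), which also carries a GoLoco motif that holds Gi alpha in its inactive state, stood at 60.8 with exosomes and 72.2 with PBS in pair 1, and at 96.9 with exosomes and 66.4 with PBS in pair 2. Its ratio was 0.843 (0.760 to 0.934) in pair 1 and 1.46 (1.32 to 1.61) in pair 2. For both genes neither interval reached 1, so counting error alone does not cover the opposite directions, but variation between cultures was not measured within a pair.

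RGS12 (ENSCAFG00000029577), a large scaffold with a GoLoco motif, was level between treatments in each pair, at 83.03 with exosomes and 83.03 with PBS in pair 1 and at 2.52 with exosomes and 2.65 with PBS in pair 2. Its interval was 0.912 to 1.10 in pair 1 and, from 32 and 25 reads, 0.545 to 1.67 in pair 2, so a difference within these bounds was not detectable at this depth. RGS19 (ENSCAFG00000030747), the RZ member also known as GAIP, stood at 29.0 with exosomes and 36.6 with PBS in pair 1, and at 49.7 with exosomes and 44.1 with PBS in pair 2. Its ratio was 0.791 (0.681 to 0.917) in pair 1, and in pair 2 it was 1.13 with an interval that includes 1 (0.995 to 1.28).

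In all, 5 of the 7 genes had opposite directions in the 2 pairs, beside 39.7% of all genes, and 2 were higher with exosomes in both, beside 27.8%. None of the 7 was lower in both pairs, beside 32.5% of all genes. The 5 include RGS3 and RGS12, whose ratios were near 1 in pair 2. With libraries scaled to equal recovered totals, RGS12 took the ratios 0.975 in pair 1 and 1.00065 in pair 2, and no other gene of the 7 changed direction in either pair. At 2-fold or more, RGS2 was higher in pair 1 (4.13% of all genes) and in pair 2 (3.18%). RGS10 was at least 2-fold lower in pair 1 (7.79% of all genes), and none of the 7 was so in pair 2 (3.28%). These counts over 7 genes are a description.

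**Figure D2:**
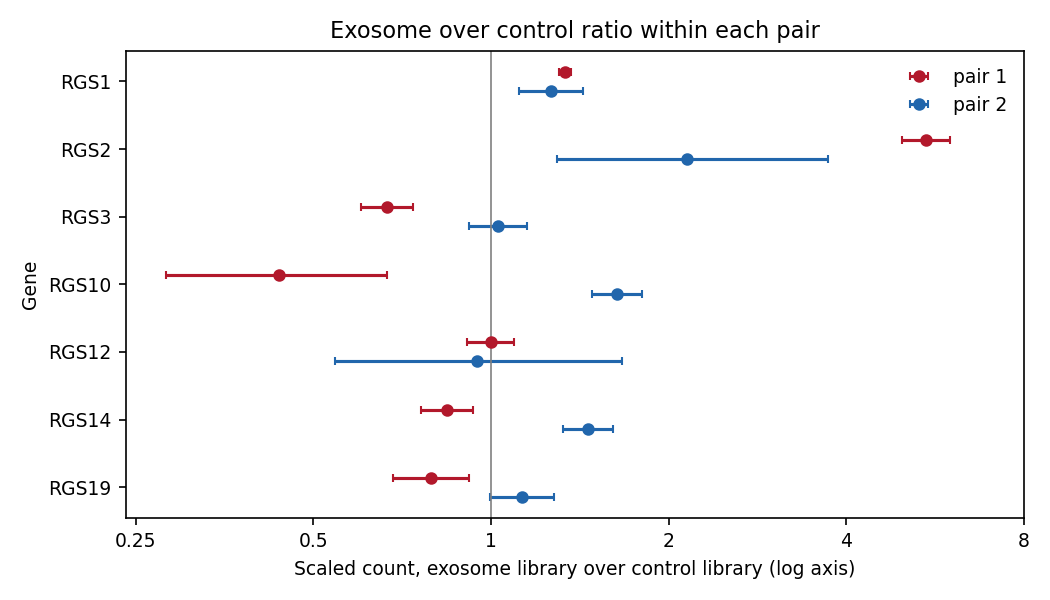
Ratio of the scaled count in the exosome library to that in the control library (log axis) for each RGS gene, pair 1 in red and pair 2 in blue, with exact 95% intervals for counting error. RGS1 and RGS2 lie above 1 in both pairs, while RGS10 lies at 0.438 in pair 1 and 1.64 in pair 2.

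The comparison of pair 1 with pair 2 was not used to choose the genes. Across all genes, limma with the treatment as a term called 25.3% of genes between the pairs (12.7% higher and 12.7% lower in pair 1), and 4 of the 7 RGS genes were among them. Each pair is 1 dog with 1 library per treatment, so the adjusted p-values say nothing of dogs in general. Nor do they measure a spread between like cultures of the same dog. Their error term is how far the exosome to control difference departs between the pairs, moderated over all genes. RGS1 was 25.9-fold (24.0 to 28.0) higher in pair 1 than in pair 2 among exosome libraries and 24.5-fold (22.2 to 27.1) higher among control libraries, and its log2 difference was 4.63 ± 0.23 (SE, limma adjusted p = 4.2e-08). RGS12 was 33.0-fold (23.2 to 48.6) higher in pair 1 among exosome libraries and 31.3-fold (21.1 to 48.6) higher among control libraries, with a log2 difference of 4.55 ± 0.23 (SE, limma adjusted p = 4.4e-08). Both genes were therefore apart by nearly the same factor in each treatment.

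RGS2 was 50.5-fold (39.2 to 66.2) higher in pair 1 than in pair 2 among exosome libraries and 19.9-fold (12.9 to 32.4) higher among control libraries. Its log2 difference of 4.60 ± 0.32 (SE, limma adjusted p = 4.7e-07) was past the threshold in the fits that left out 1 library, except without the control library of pair 2 (log2 difference 4.18, adjusted p = 0.059). RGS10 ran the other way, being 34.9-fold (24.4 to 51.5) higher in pair 2 than in pair 1 among exosome libraries and 9.33-fold (7.46 to 11.8) higher among control libraries. Its log2 difference of pair 1 minus pair 2 was -3.89 ± 0.33 (SE, limma adjusted p = 2.6e-06). At these sizes, 0.24% of all genes lay farther apart between the pairs than RGS1, 0.248% than RGS2, 0.299% than RGS12 and 0.616% than RGS10.

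The other three genes did not pass this test. The log2 difference of pair 1 minus pair 2 was 0.36 ± 0.24 for RGS3 (SE, limma adjusted p = 0.34), -0.27 ± 0.25 for RGS14 (SE, limma adjusted p = 0.5) and -0.51 ± 0.24 for RGS19 (SE, limma adjusted p = 0.15). RGS1, RGS2 and RGS12 were at least 10-fold apart in the same direction in both treatments, as were 2.12% of all genes. The authors reduced 30951 genes to 11838 before the comparisons by a rule not given in the sources used here, and a gene kept only through the pair where it is high had to differ, so these counts are a description too.

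**Figure D3:**
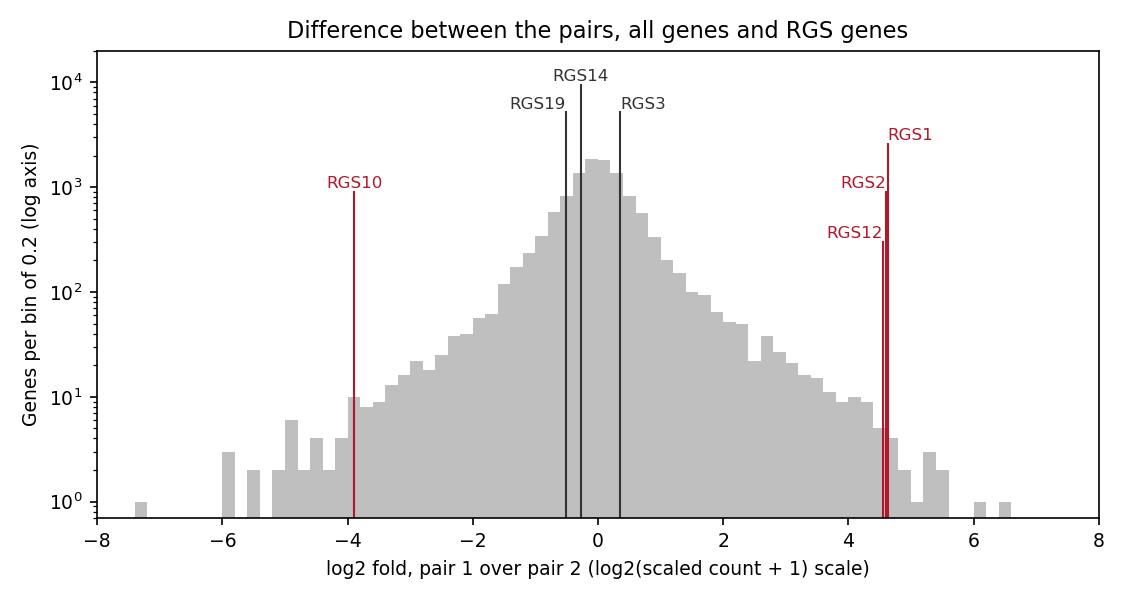
Distribution over all 11691 genes of the log2 difference between pair 1 and pair 2 (grey, number of genes per bin on a log axis), with the RGS genes as vertical lines whose heights only separate the labels, red where limma called them. RGS1, RGS2 and RGS12 lie between 4.55 and 4.63 and RGS10 at -3.89, while RGS3, RGS14 and RGS19 lie near 0.

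Markers of several cell types also differed between the pairs. The CD8 T cell list (14 of 14 genes analysed) summed to 3519 with exosomes and 3928 with PBS in pair 1, and to 5307 with exosomes and 5175 with PBS in pair 2, but this list holds cytotoxic genes that NK cells share. CD3E, a chain of the T cell receptor complex, was at 530.2 with exosomes and 675 with PBS in pair 1 and at 749.7 with exosomes and 873 with PBS in pair 2, so transcripts that define T cells were present in every library. Between the pairs, limma called 1 of the 14 genes higher and 5 lower in pair 1, beside 12.7% of all genes in each direction. PRF1 and GZMA had higher values in pair 1 than in pair 2 in each treatment. PRF1 was at 187 with exosomes and 131 with PBS in pair 1 and at 103 with exosomes and 90.0 with PBS in pair 2. CD5, CD3D and EOMES, also on the list, had lower values in pair 1 than in pair 2. CD5 was at 23.6 with exosomes and 13.3 with PBS in pair 1 and at 411 with exosomes and 347 with PBS in pair 2. CD8B, which encodes the beta chain of CD8, stood at 72.7 with exosomes and 73.4 with PBS in pair 1 and at 528 with exosomes and 479 with PBS in pair 2. Of the CD4 T cell list (4 of 4 genes), CD4 stood at 11.6 or less and FOXP3 at 3.15 or less in the 4 libraries. ICOS ran from 79.9 to 190 and CD40LG from 25.7 to 48.8. Of the B cell list (6 of 12), MS4A1, the B cell marker CD20, stood at 10.7 or less, and 5 of the 6 rows had a mean under 10. The sixth is shared by RPS19 and CD79A, whose reads cannot be told apart, and ran from 852 to 1369. The NK cell list (6 of 7 genes) summed to 1328 with exosomes and 943 with PBS in pair 1 and to 372 with exosomes and 400.4 with PBS in pair 2. Its genes did not all differ between the pairs in 1 direction, since limma called 4 higher and 2 lower in pair 1. The 2 lower ones were NCR1 and NCR3. KLRD1 carried the higher exosome sum in pair 1, at 666 with exosomes and 213 with PBS, while NCR1, NCR3 and KLRB1 were below PBS in the exosome library of each pair, and the median log2 ratio of the list was -0.44 in pair 1 and -0.42 in pair 2. Of the monocyte list 2 of 12 genes were analysed, CD68 at 2.17 or less and a row shared by ITGAM, ITGAX and ITGAD, and the list summed to 385 with exosomes and 640.1 with PBS in pair 1 and to 73.8 with exosomes and 53.4 with PBS in pair 2. The neutrophil list (3 of 9) summed to 594 with exosomes and 1077 with PBS in pair 1 and to 133 with exosomes and 235 with PBS in pair 2. This sum includes a row shared by S100A6 and S100A8, whose reads cannot be told apart. MMP9, also in the sum, was at 146 with exosomes and 439 with PBS in pair 1. In pair 2 MMP9 was at 81.6 with exosomes and 171 with PBS. It was called lower with exosomes (log2 fold -1.32 ± 0.24, SE, limma adjusted p = 0.033). LTF, the other gene of this sum, was at 351 with exosomes and 487 with PBS in pair 1. In pair 2 LTF was at 11.2 with exosomes and 10.6 with PBS. Of the platelet list 2 of 9 genes were analysed. ITGB3 stood at 27.1 with exosomes and 4.002 with PBS in pair 1. In pair 2 ITGB3 was at 0.472 with exosomes and 0.106 with PBS, the latter being 1 read. ITGA2B stood at 1.68 with exosomes and 1.96 with PBS in pair 1 and 2.60 with exosomes and 1.38 with PBS in pair 2. In the dendritic cell list (3 of 8), limma called 2 rows higher and 1 lower in pair 1, and 2 had a mean under 10. Its FLT3 row is shared with URAD. The part of these cells in the RGS values was not tested.

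RGS2, RGS13, RGS1, RGS21 and RGS18 stand in this order beside each other in the canine assembly UU_Cfam_GSD_1.0, with 1 further protein-coding model between RGS2 and RGS13. Of the 5 genes before RGS2 in this order, 4 were analysed. UCHL5, the direct neighbour and a deubiquitinase of the proteasome, stood at 118 with exosomes and 128 with PBS in pair 1 and at 89.6 with exosomes and 118.4 with PBS in pair 2. RO60, GLRX2 and CDC73, the next analysed genes, had log2 ratios of exosome over control of 0.24 to 0.49 in pair 1 and -0.36 to -0.037 in pair 2. None of the 4 had higher values with exosomes in both pairs, beside 27.8% of all genes, so 4 genes give no contrast with RGS2 and RGS1. On the other side, past RGS18, KCTD3 was analysed, with log2 ratios of -0.80 in pair 1 and 0.092 in pair 2. These neighbours were chosen after values had been seen.

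The pattern of RGS2 over the 4 libraries was set beside that of 9982 genes with a single symbol and at least 20 reads in 1 library. The nearest, by the root mean square difference of centred log2(scaled count + 1) values, were LIMCH1 (0.36), TNFRSF18 (0.38), TNFSF4 (0.54), VEGFA (0.56) and SLC17A7 (0.58). LIMCH1 stood at 78.3 with exosomes and 26.0 with PBS in pair 1 and at 1.18 with exosomes and 0.743 with PBS in pair 2. TNFRSF18, the costimulatory receptor GITR, stood at 540 with exosomes and 169.9 with PBS in pair 1 and at 12.2 with exosomes and 11.3 with PBS in pair 2. TNFSF4, the ligand of OX40, stood at 45.0 with exosomes and 4.55 with PBS in pair 1 and at 0.393 with exosomes and 0.106 with PBS in pair 2. All 5 were high in the exosome library of pair 1 and low in both libraries of pair 2. They were picked for this pattern, so it is no finding about them, and with 4 libraries such a likeness is a description only. The TNFSF4 value with PBS in pair 2 is that of 1 read.

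Of the other genes with an RGS domain, 6 were analysed, and limma called 0 of them for the treatment (smallest adjusted p = 0.083, for RGS11). RGS11, an R7 member that works in a complex with G beta 5, stood at 2.76 with exosomes and 1.57 with PBS in pair 1 and at 4.09 with exosomes and 0.955 with PBS in pair 2, from 9 to 52 reads. RGS9, its R7 relative, stood at 32.8 with exosomes and 19.1 with PBS in pair 1 and at 9.99 with exosomes and 14.5 with PBS in pair 2, thus in opposite directions. RGS17, of the RZ subfamily, stood at 3.65 with exosomes and 3.61 with PBS in pair 1 and at 3.93 with exosomes and 2.76 with PBS in pair 2. RGS22 stood at 0.197 with exosomes and 0.392 with PBS in pair 1, or 2 and 5 reads, and at 12.2 with exosomes and 9.55 with PBS in pair 2, a difference between the pairs that limma called (log2 difference of pair 1 minus pair 2 -3.19 ± 0.24, SE, adjusted p = 9.1e-07). AXIN1, a scaffold of Wnt signalling with an RGS domain, stood at 85.4 with exosomes and 70.002 with PBS in pair 1 and at 61.1 with exosomes and 48.0 with PBS in pair 2 (adjusted p = 0.58 by limma for the treatment). AXIN2, its paralogue, stood at 2.66 with exosomes and 2.83 with PBS in pair 1 and at 2.20 with exosomes and 1.91 with PBS in pair 2. Of these 6 genes, RGS11, RGS17 and AXIN1 had higher values with exosomes in both pairs, beside 27.8% of all genes. RGS17 was nearly level in pair 1, with a ratio of 1.01 (0.637 to 1.59). With libraries scaled to equal recovered totals, this RGS17 ratio was 0.986, below 1.

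Around the family, 110 genes of the 8 G protein lists (the 6 other RGS domain genes included) were analysed, of which limma called 1 higher (0.248% of all genes) and 2 lower (0.496% of all genes) with exosomes. Between the pairs, limma called 24 of the 110 higher and 20 lower in pair 1, beside 12.7% of all genes in each direction. Their median log2 ratio was -0.12 in pair 1 and -0.03 in pair 2, beside -0.02 in pair 1 and -0.03 in pair 2 over all genes. The lists were chosen with earlier results of these data known. The 3 calls depend on the test, since edgeR with the same pair block called 0 of the 110 (at an unadjusted p under 0.05, 11 were higher and 13 lower).

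Among G protein subunits, none of 8 alpha genes and none of 10 beta and gamma genes was called by limma, with smallest adjusted p-values of 0.14 and 0.11. GNAS, the Gs alpha subunit, stood at 718 with exosomes and 949 with PBS in pair 1 and at 727 with exosomes and 906 with PBS in pair 2. GNAI2, the main Gi alpha subunit of lymphocytes, stood at 447 with exosomes and 531 with PBS in pair 1 and at 439 with exosomes and 529.7 with PBS in pair 2. Both were nearly level between the pairs. Of these 18 subunit genes, 6 were called between pairs by limma, beside 25.3% of all genes. GNAI1, another Gi alpha subunit, stood at 72.0 with exosomes and 59.7 with PBS in pair 1 and at 6.92 with exosomes and 8.81 with PBS in pair 2 (adjusted p = 2.2e-06 by limma between pairs). GNB1 stood at 266 with exosomes and 273 with PBS in pair 1 and at 209 with exosomes and 222 with PBS in pair 2, and GNG2 at 166 with exosomes and 169.6 with PBS in pair 1 and 105 with exosomes and 124 with PBS in pair 2.

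Of 20 genes that make, degrade or read cyclic AMP, limma called 1. PDE3B, a phosphodiesterase that degrades cyclic AMP, rose to 3269 with exosomes, against 1129 with PBS in pair 1, and to 1378 with exosomes, against 729.6 with PBS in pair 2 (log2 fold 1.22 ± 0.24, SE, limma adjusted p = 0.043). PRKACB, a catalytic subunit of protein kinase A, stood at 247 with exosomes and 312 with PBS in pair 1 and at 221 with exosomes and 249.98 with PBS in pair 2. Of 17 effectors of Gq and G12/13, limma called 0 (smallest adjusted p = 0.47), with AKAP13 at 566 with exosomes and 515 with PBS in pair 1 and 397 with exosomes and 458 with PBS in pair 2, and PRKCH, a protein kinase C, at 395 with exosomes and 431 with PBS in pair 1 and 392 with exosomes and 417 with PBS in pair 2.

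Of 35 receptors, limma called 1. CX3CR1, the fractalkine receptor, fell to 14.1 with exosomes, against 70.002 with PBS in pair 1, and to 7.63 with exosomes, against 15.9 with PBS in pair 2 (log2 fold -1.60 ± 0.29, SE, limma adjusted p = 0.032). CXCR4, the receptor of CXCL12 and one whose signal RGS1 is known to limit, stood at 605 with exosomes and 138 with PBS in pair 1 and at 162 with exosomes and 103 with PBS in pair 2 (adjusted p = 0.056 by limma). GPR171 stood at 196 with exosomes and 245 with PBS in pair 1 and at 233 with exosomes and 319 with PBS in pair 2. In all, 7 receptors had higher values with exosomes in both pairs (27.8% of all genes) and 17 lower values (32.5% of all genes). The median log2 ratio of the receptors was -0.36 in pair 1 and -0.14 in pair 2, beside -0.02 in pair 1 and -0.03 in pair 2 over all genes.

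Of 7 receptor kinases and arrestin-fold genes, limma called 1. TXNIP, an arrestin-fold protein that binds thioredoxin, fell to 174 with exosomes, against 517 with PBS in pair 1, and to 154 with exosomes, against 299 with PBS in pair 2 (log2 fold -1.26 ± 0.24, SE, limma adjusted p = 0.04). A row shared by GRK6 and PRR7, whose reads cannot be told apart, stood at 136 with exosomes and 303 with PBS in pair 1 and 234 with exosomes and 244 with PBS in pair 2. Of 7 GoLoco and chaperone regulators of G alpha, limma called 0 (smallest adjusted p = 0.35), with GPSM3 at 91.8 with exosomes and 106.02 with PBS in pair 1 and 107.2 with exosomes and 107.0 with PBS in pair 2, and NUCB1 at 176 with exosomes and 181 with PBS in pair 1 and 117 with exosomes and 128 with PBS in pair 2.

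**Figure D4:**
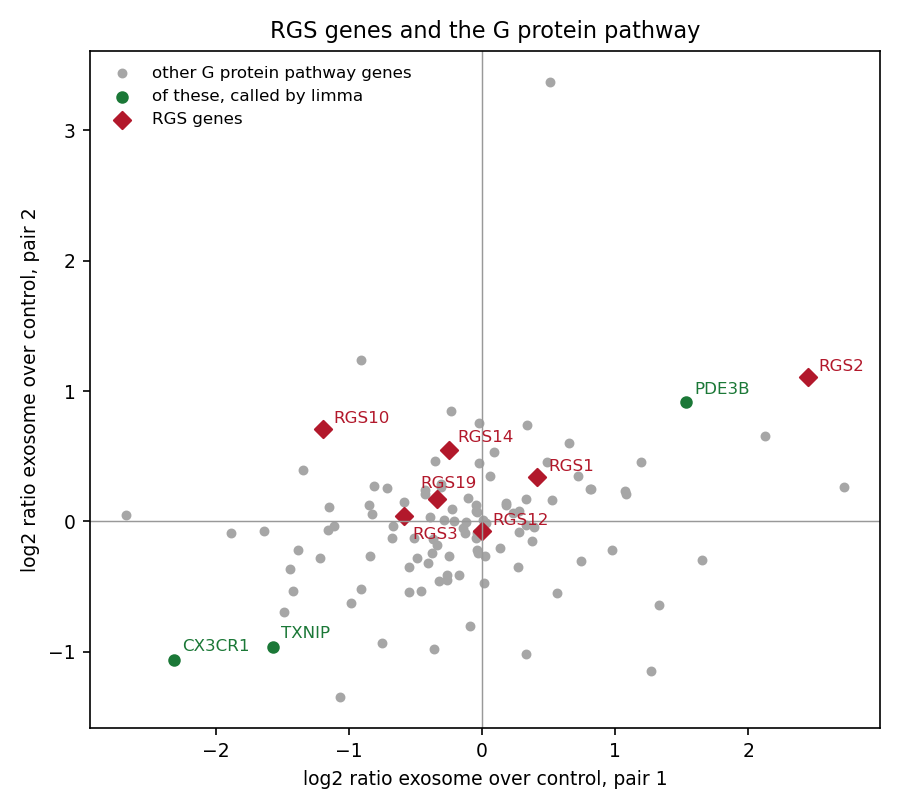
Log2 ratio of exosome to control in pair 1 (x axis) and pair 2 (y axis) for the 7 RGS genes (red diamonds) and the genes of the 7 other G protein lists (grey, green where limma called them). RGS2 lies at 2.45 in pair 1 and 1.11 in pair 2. RGS3, RGS10, RGS14 and RGS19 lie left of 0 and above it, RGS3 only just above, at 0.039 in pair 2.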

How the data were processed

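Messenger RNA was measured in 4 libraries. Per the submitters' processing notes, reads were handled on the build CanFam3.1 with featureCounts 1.6.0, HISAT2 2.1.0, Trimmomatic 0.38, MultiQC and FastQC; settings and use of strand are not given. Per the file headers and log, the authors compared 1 exosome with 1 control library per table by DEGseq, and dropped 89 outlier genes in pair 1 and 58 in pair 2. The deposited signal is a read count divided by 1 factor per library. Divided by the smallest value of their column, 100% of values came out whole (tolerance 0.001), which recovered the reads. The deposited log also gives numbers of genes per step. Columns were assigned to exosome or control only, because the labels give 48 h for every library and so do not match columns named 24 h.

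The files held scaled values, so limma 3.58.1 in R 4.3.3 on log2(value + 1) gave the main result for 11691 genes, with pair and treatment as terms, Benjamini-Hochberg adjustment at 0.05, and 1 residual beside 11.4 prior degrees of freedom. The SE is moderated and draws mostly on all genes. The pair is a block because both its cultures come from 1 dog, as the series' design states. The table names give the 2 arms of a pair the same number but name no dog. Across genes, the 2 cultures of a pair deviated together (r = 0.818, with 2 pairs the same for each). edgeR 4.0.16 (quasi-likelihood, TMM) called 0 genes and DESeq2 1.42.0 62 higher and 107 lower on recovered reads. Ratios within a pair have no test.

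The RGS genes and the lists were chosen with earlier results of these data known. Named are all listed RGS genes analysed, per pathway list the called genes and the 2 with the highest mean value, and the 5 genes nearest to RGS2; RGS11, RGS17, RGS22, AXIN2, GNAI1, single markers and the genomic neighbours were named after their values were seen. All 7 gene IDs matched the reference table of UU_Cfam_GSD_1.0, used for names and gene order. No sequence is shown.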

Additional observations from a re-analysis of the deposited data

Results flagged for a closer look

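Several genes had opposite directions of exosome against control in the 2 pairs. With 1 library per group and pair, the difference between the pairs was not tested. As log2 ratio in pair 1 minus log2 ratio in pair 2, it was -1.90 for RGS10, -0.79 for RGS14, -0.62 for RGS3, -0.51 for RGS19 and 0.077 for RGS12. Among other genes with an RGS domain it was 1.32 for RGS9, -1.34 for RGS22, which had 2 and 5 reads in pair 1, and -0.29 for AXIN2. Among the named genes of the pathway it was -0.21 for GPSM3 and 0.34 for AKAP13. Opposite directions of any size were seen for 39.7% of all genes.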

How the results depend on the processing

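Counts of genes called higher and lower with exosomes (29 and 58) moved with nearly every choice. They were 202 and 408 with a pseudocount of 5, 219 and 384 with a mean value of at least 20, and 62 and 107 by DESeq2. They were 0 and 0 with a pseudocount of 0.1 (565 and 1006 at an unadjusted p under 0.05), with equal recovered totals (613 and 873), by edgeR (655 and 985) and by limma without the pair block (86 and 123), and ranged from 0 to 0 when 1 library was left out. In the G protein lists the counts of 1 and 2 became 3 and 9 with the pseudocount of 5 and 5 and 9 with the filter, 2 higher by DESeq2, and 0 and 0 in the settings that gave 0 over all genes. The RGS2 fold of 1.63 ran from 1.38 to 2.05 in the settings with all 4 libraries, and from -1.06 to 4.33 when 1 library was left out, fits that by construction lack the block and so take in the difference between pairs. The RGS10 treatment fold changed sign in 2 of 8 settings with all libraries, and the other 6 RGS genes kept theirs.

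Between pairs, 1479 genes were called higher and 1479 lower in pair 1, against 733 and 631 without the treatment term, 955 higher with equal totals and 931 lower with the filter; leaving out 1 library gave 286 to 911 and 260 to 974. RGS1, RGS10 and RGS12 were called in all 12 settings and RGS2 in 11. Apart from the fewer genes or libraries that a setting itself brings, the cause of these moves was not tested. Low reads limit RGS2 and RGS12 in pair 2 and RGS10 in pair 1.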
